A study of Mus musculus with 10 samples.

Results

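The loci described here are long intergenic non-coding RNA (lincRNA) genes measured in mouse inguinal white fat with and without the Wnt pathway transcription factor Tcf7l2 in adipose cells. They are the genes of the GENCODE M21 type lincRNA that had 10 or more counts in at least 5 of the 10 libraries, with the imprinted genes H19 and Meg3 left out. By this rule 374 of the 5009 lincRNA genes in the count table were members, out of 52636 genes in all. The members were thus chosen by their counts, so that their level is a description and not a result. RNA came from inguinal white adipose tissue of C57BL/6 mice aged 6 months. All were on a 65% high fat diet, for 16 weeks by the diet label and the series text, 12 weeks by the sample description and 4 months by the treatment protocol. The 5 control libraries were from TCF7L2F/F animals, whose genotype label reads wild type, and the 5 knockout libraries were from TCF7L2F/F animals that also carried Adp-Cre, labelled as an adipose knockout. Both groups therefore had the floxed allele and only the knockouts had the recombinase, so Cre itself and loss of the gene cannot be told apart. The titles hold a different mouse number for each library, but no label states outright that each is 1 animal, and p-values measure the spread between these libraries, which may be technical.

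LincRNA genes lie mostly outside protein-coding genes, although 89 of the 374 members here overlapped the span of one. They are usually transcribed by RNA polymerase II, and many of their products are spliced and polyadenylated like messenger RNA. Some stay in the nucleus: Malat1 collects in nuclear speckles, and Neat1 is the RNA scaffold of paraspeckles. Others reach the cytoplasm, are processed to small nucleolar RNAs or microRNAs, or are hardly more than traces of transcription near another gene, and for most of the loci no function is known.

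The sequences shown for Malat1 and Neat1 lie near their 3′ ends. Malat1 and the longest Neat1 transcript end at a site cut by RNase P. Just before it they carry U-rich motifs and an A-rich tract that fold into a triple helix in place of a poly(A) tail. The Neat1 counts are for the whole gene and not for that transcript alone. The stretches are shown because both RNAs are measured here from total RNA without poly(A) selection. The longest GENCODE M21 transcript of each lincRNA gene was searched for 2 U-rich motifs and 1 A-rich motif, spelled out by the capitals below. The motifs had to come in that order on the transcribed strand, with at most 60 bases between neighbours. The search found 2 of the 374 members (0.535%) and 2 of the 5009 lincRNA genes (0.0399%), Malat1 and Neat1 in each case. The motifs are those of the 3′ ends of these 2 RNAs, so that both were bound to be found. The stretches are written 5′ to 3′ as DNA from GRCm38 minus strand transcripts, with the 3 motifs in capitals. Malat1 is shown at chr19:5795967-5796080 and Neat1 at chr19:5824708-5824812.
Malat1: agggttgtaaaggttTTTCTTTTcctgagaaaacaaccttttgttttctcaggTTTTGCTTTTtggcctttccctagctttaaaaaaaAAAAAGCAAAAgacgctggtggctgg
Neat1: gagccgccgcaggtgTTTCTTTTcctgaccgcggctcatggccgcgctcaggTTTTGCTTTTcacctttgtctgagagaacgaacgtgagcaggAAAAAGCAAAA
The Neat1 tract closes the annotated transcript of 20771 bases, and the Malat1 stretch ends 277 bases before the end of the annotated transcript of 6983 bases.

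Across the 10 libraries the total count was 14032866 to 17782073, so a count of 3 in a library stood for 0.172 to 0.205 CPM (counts scaled to the library total, adjusted by the trimmed mean of M-values). Tcf7l2 was at 10.7 ± 0.909 CPM in controls and 5.83 ± 0.311 in knockouts (mean ± SD, n = 5 each; two-sided exact permutation test, p = 0.0079, the smallest this design allows), with no overlap between the groups. The title numbers run 1 to 5 in controls and 6 to 10 in knockouts, so genotype cannot be told apart from any handling that followed that order. Of 10 T cell markers 6 were higher in knockouts (5.84% of all genes tested were), with summed levels of 16.5 to 32 CPM in controls and 24.01 to 151 in knockouts. Of 8 B cell markers 4 were higher, with 10.5 to 26.9 CPM in controls and 17.8 to 384 in knockouts. Knockout 1 alone gave both upper ends, and the other knockouts were at 24.01 to 43.7 and 17.8 to 46.1 CPM. Of 10 endothelial markers 8 were lower (7.05% of all genes tested were), with 1199 to 1542 CPM in controls and 964 to 1145 in knockouts. In bulk tissue fewer cells of a type and less RNA per cell cannot be told apart. Adipocyte markers summed to 22590 to 28790 CPM in controls and 24930 to 33830 in knockouts, and no marker was at 0 in all libraries.

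Malat1 and Neat1, the abundant nuclear RNAs, were lower in the knockout fat, each at about the same share of the control level. Malat1 (ENSMUSG00000092341, GRCm38 chr19:5795690-5802672, minus strand, 1 merged exon) was at 6748.5, 7228, 5250.4, 6261 and 4606 CPM in controls 1 to 5 and 3972, 3606, 4345, 4941 and 3534 CPM in knockouts 1 to 5. Control 5 lay below knockout 4, and the other 4 controls were above every knockout. The means were 6019 ± 1077 CPM in controls and 4079.6 ± 580 in knockouts (SD, n = 5 each), 67.8% of the control level. The log2 fold change was −0.56 (SE 0.13) with an adjusted p of 0.0217 in edgeR's quasi-likelihood test. Leaving out any of control 1, control 2, control 4, knockout 2 and knockout 5 ended that call, with adjusted p-values of up to 0.0683. It also ended with a T cell score as covariate (mean log2 CPM of the T cell markers), where the fall was −0.55 (adjusted p = 0.116). The T cell score was itself 0.550 to 1.45 in controls and 1.01 to 3.82 in knockouts. It thus goes in part with genotype, and a call lost beside it does not tell the 2 apart.

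Neat1 (ENSMUSG00000092274, chr19:5824708-5845478, minus strand), a neighbour of Malat1 on the same strand, was at 369, 430, 334, 413 and 271 CPM in controls and 218, 219, 279, 258 and 213 CPM in knockouts. Its groups overlapped only in that control 5 was below knockout 3, the same control that was low for Malat1. Neat1 fell to 65.3% of control, from 363 ± 63.9 CPM in controls to 237 ± 29.4 (−0.62 on the log2 scale, SE 0.12, adjusted p = 0.0122). It remained called in each of the 10 fits with 1 library left out, with a highest adjusted p of 0.0389, but not beside the T cell score (−0.52, adjusted p = 0.101).

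Lncpint, a p53-induced nuclear lincRNA at chr6:31082565-31220488, was the remaining nuclear-retained locus that fell. Its levels were 13.2, 12.4, 9.77, 10.3 and 9.03 CPM in controls and 9.19, 6.75, 7.72, 6.64 and 6.98 CPM in knockouts. Only control 5 lay below a knockout, by 9.03 against 9.19 CPM. The log2 fold change was −0.55 (SE 0.13, adjusted p = 0.0228), and the call was lost without control 1 or 2 or knockout 2 or 5 (adjusted p up to 0.0663), while beside the T cell score it held (−0.73, adjusted p = 0.0421). Of the 12 nuclear-retained lincRNAs listed, 7 were members, and 3 of these fell (7.05% of all genes tested fell), 0 rose and 4 were not called, with a median log2 fold change of −0.295 against 0.000185 over all 15927 genes tested. The list was drawn up with earlier results of these data known, and Malat1 and Neat1 are in it by the choice of the loci.

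**Figure D1:**
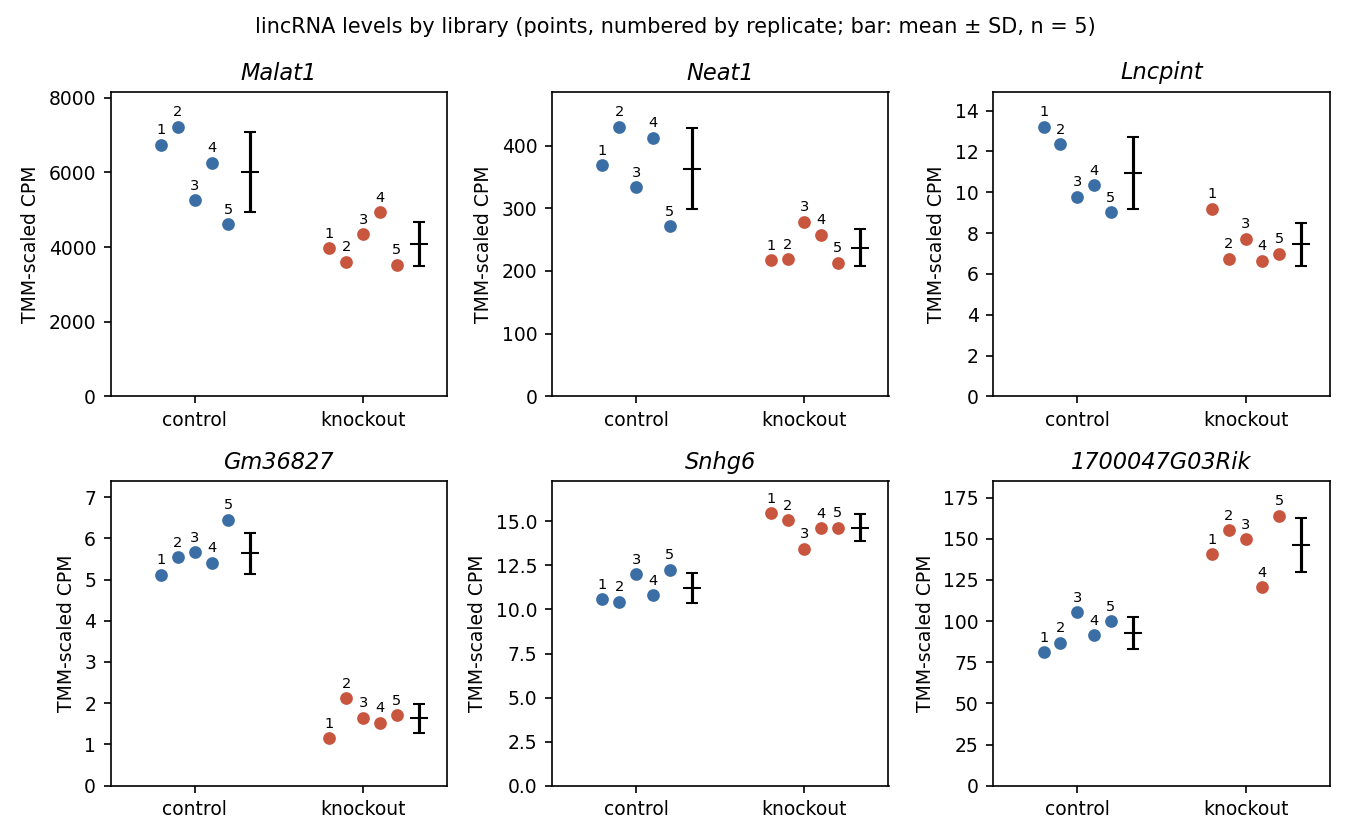
Level of 6 lincRNA loci in each library, in TMM-scaled CPM on a linear axis from 0, with controls 1 to 5 in blue and knockouts 1 to 5 in red and the group mean and SD drawn beside the points. Malat1, Neat1, Lncpint and Gm36827 were lower in knockouts and Snhg6 and 1700047G03Rik higher, and for Malat1, Neat1 and Lncpint control 5 lay within the knockout range.

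The other nuclear-retained members were not called. The Norad locus 2900097C17Rik, whose RNA binds Pumilio proteins and is largely cytoplasmic in spite of the list it stands in, was at 251.95, 253, 262, 260 and 297 CPM in controls and 242, 256, 270, 290 and 286 in knockouts, and the difference on the log2 scale was 0.02 (SE 0.070, adjusted p = 0.861). Its groups overlapped across nearly their whole range. Cyrano, listed as 1700020I14Rik, a conserved RNA that directs decay of the microRNA miR-7, was picked after its values were seen as a further abundant spliced locus, and stood at 214 ± 4.04 CPM in controls and 217 ± 9.60 in knockouts, a log2 difference of 0.02 (SE 0.052, adjusted p = 0.818). Pvt1, the neighbour of Myc, Miat and Mirg had log2 fold changes of −0.12 (adjusted p = 0.692), −0.30 (0.652) and −0.07 (0.874).

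Over all members, falls outnumbered rises. Of the 364 members that passed the filter on low counts of the test, 36 were lower and 5 higher in knockouts at an adjusted p under 0.05 and 323 were not called. Of all 15927 genes tested 12.9% were called, 7.05% lower and 5.84% higher. The lincRNA members were thus called at 11.3%, near the background, with 9.89% lower and 1.37% higher. The median log2 fold change of the members was −0.189, with 243 negative and 121 positive values. The 36 falls ran from −0.37 to −1.79 (median −0.91), and 16 were at least 2-fold. The largest, Gm44386, met the count minimum only through the 5 controls. In 22 members all controls were above all knockouts (4.45% of all genes tested) and in 6 all knockouts were above all controls (4.55%), where 8.99% of all genes tested did not overlap in 1 direction or the other.

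The number of calls rested on which libraries were in the fit. Omitting control 1 left 9 falls and 3 rises (3.58% of all genes called), omitting control 2 left 9 and 3 (3.43%), and omitting control 4 left 11 and 3 (5.71%). The fit that omitted knockout 2 had 13 falls and 3 rises (6.31%), and that for knockout 5 had 17 and 3 (5.45%). Control 5 worked the other way, with 54 falls and 9 rises once it was omitted (19.1%). The remaining omissions, of control 3 (10.7%), knockout 1 (14%), knockout 3 (9.12%) and knockout 4 (10.6%), gave 24 to 38 falls and 4 to 7 rises. In all 10 of these fits 9 of the 36 falls and 3 of the 5 rises were called. Rises were also 9 with no filter on low counts (5.82% of all genes called), 3 among genes with 30 or more counts in at least 5 libraries (13.7%) and 8 in DESeq2 (16.8%).

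The median change of the lincRNA loci lay between that of coding genes and those of sense intronic and TEC genes. Of 13542 protein-coding genes tested 897 were higher and 779 lower, with a median log2 fold change of 0.02. Of 86 genes of the type sense intronic, which lie inside introns of other genes on the same strand, 0 were higher and 31 lower (median −0.79). Of 700 genes of the type TEC, gene models that await further evidence, 1 was higher and 192 lower (median −0.70). Antisense genes numbered 458 with 8 higher and 46 lower (median −0.30), and processed transcripts 220 with 2 higher and 12 lower (median −0.14). Within the lincRNA members, 54 single-exon loci had 0 rises and 6 falls (11.1%), and 310 with an intron had 5 rises and 30 falls (9.68%). Members with more than the median exonic length had 1 rise and 22 falls among 181 (12.2% lower, median −0.25), and shorter members 4 rises and 14 falls among 183 (7.65% lower, median −0.14).

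**Figure D2:**
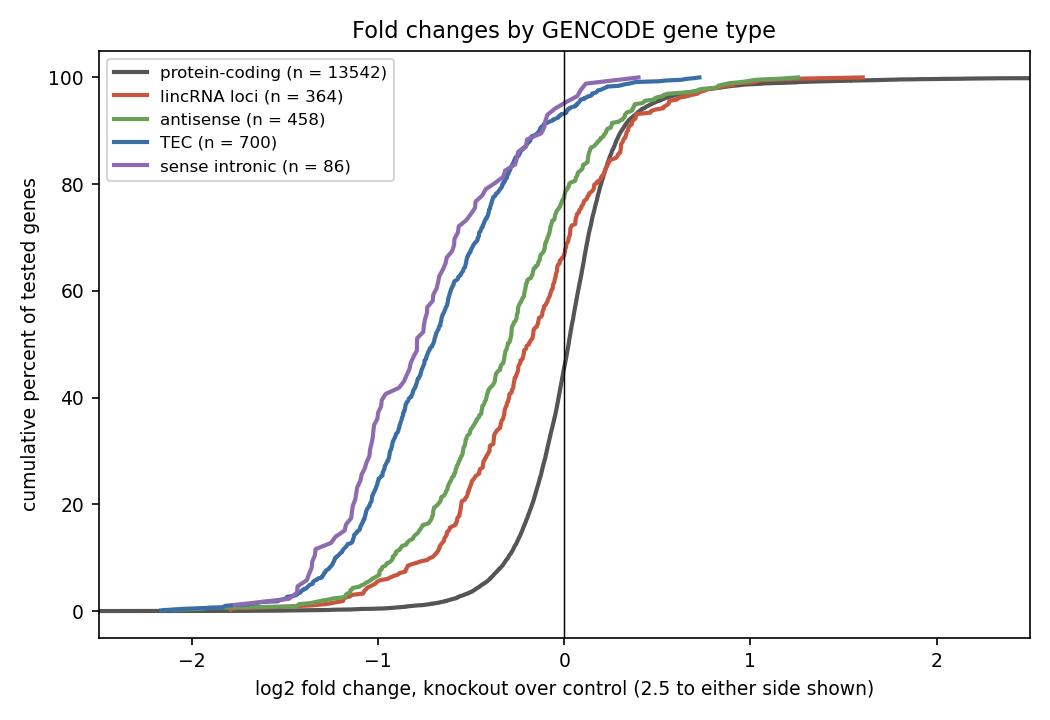
Cumulative share of tested genes by log2 fold change, knockout against control, for the lincRNA members and the other GENCODE gene types. Up to a log2 fold change of 0 the lincRNA curve lies left of the protein-coding curve (medians −0.189 and 0.0235), and it lies right of the curves for TEC and sense intronic genes (medians −0.704 and −0.79).

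The 786 tested sense intronic and TEC genes gave each library an intronic-type score, the mean of their log2 CPM. Most of them, 700, were TEC genes, and whether these lie in introns was not examined. The score was 1.08, 1.27, 0.727, 1.20 and 0.382 in controls 1 to 5 and 0.441, 0.220, 0.464, 0.364 and 0.0562 in knockouts 1 to 5. Controls had the higher scores, and the groups overlapped only through control 5, the control in which Malat1, Neat1 and Lncpint were also low. Malat1 followed the same order at its ends: the library with the highest score, control 2, had the highest Malat1 level, and the library with the lowest score, knockout 5, had the lowest. The score differs with genotype and its part in the change of the members, apart from the fit that follows, was not tested. Control 5 also had summed muscle markers of 482 CPM, against 19.1 to 63.9 in the other controls and 29.4 to 628 in knockouts. The part of muscle in the levels of the members was not tested.

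**Figure D3:**
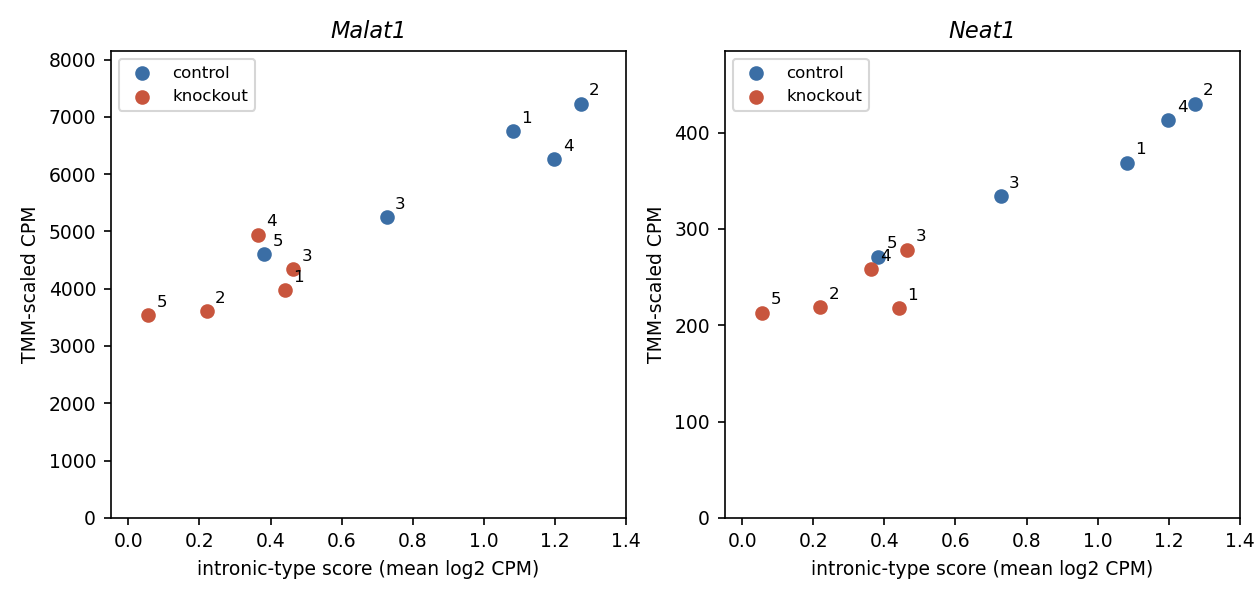
Levels of Malat1 and Neat1 in TMM-scaled CPM (linear axis) against the intronic-type score of each library (mean log2 CPM of 786 sense intronic and TEC genes), with controls in blue and knockouts in red, numbered by replicate. Knockouts lie between scores of 0.0562 and 0.464, controls 1 to 4 between 0.727 and 1.27, and control 5 at 0.382 lies among the knockouts.

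Fitted beside genotype, the score left 0 members called higher and 1 lower, and 49 of all 15927 genes called (0.308%). Of the 36 falls 33 stayed negative and 3 became positive, and their median went from −0.91 to −0.38. The 5 rises stayed positive. Over all 364 tested members the median was 0.0129, with 185 positive and 179 negative values, against a median of −0.189 by genotype alone. In that fit Malat1 stood at −0.10 (SE 0.127, adjusted p = 0.815) and Neat1 at −0.16 (SE 0.103, adjusted p = 0.606). The locus Gm36827 alone was called, at −2.01 (SE 0.22, adjusted p = 0.0039), and the other called members had adjusted p-values of 0.152 to 0.96. Score and genotype go together in these libraries except for control 5, so that their parts cannot be well told apart. With the T cell score in its place 4 members were called higher and 6 lower (2.77% of all genes called). The T cell score, too, goes in part with genotype, so its part cannot be well told apart either. All 41 calls kept their sign in that fit, 6 of the 36 falls and 3 of the 5 rises stayed called, and the median of all tested members was −0.314. The remaining rise in that fit, Gm36283 (1.25, adjusted p = 0.0206), was not called by genotype alone and is named after its values were seen. Snhg6 (0.34, adjusted p = 0.0981), 4930511E03Rik (1.08, adjusted p = 0.0761), Carmn (adjusted p = 0.134), Gdap10 (adjusted p = 0.143), 6720427I07Rik (adjusted p = 0.0820) and Gm27028 (adjusted p = 0.382) were among the calls lost.

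**Figure D4:**
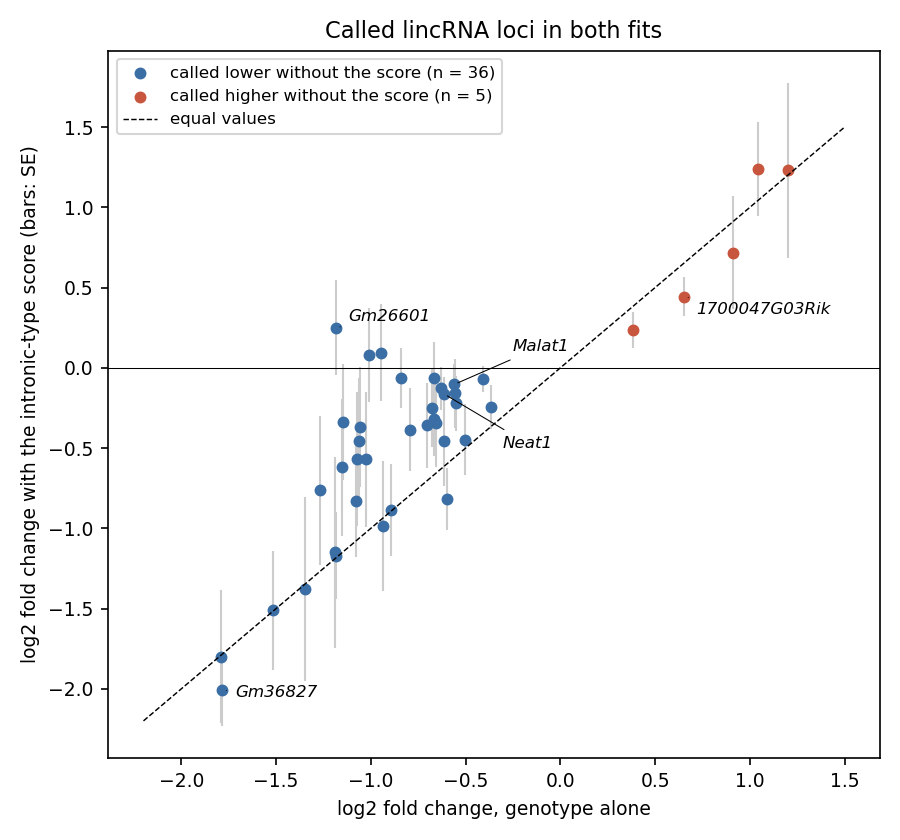
Log2 fold change of the 41 called lincRNA members fitted by genotype alone (x axis) and beside the intronic-type score (y axis, bars are SE), with the dashed line at equal values. Most falls moved toward 0, Malat1 to −0.10 and Neat1 to −0.16, while Gm36827 lay at −1.78 and −2.01.

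Gm36827, a spliced locus of unknown function, had the lowest adjusted p of all members. It lies at chr10:56970329-56982232 on the minus strand, 504153 bp from the nearest coding gene, and has 1249 exonic bases in 6 merged exons (ENSMUSG00000112327). Its levels were 5.12, 5.54, 5.66, 5.41 and 6.45 CPM in controls and 1.15, 2.13, 1.65, 1.53 and 1.71 CPM in knockouts. Every control was more than 2-fold above every knockout, and control 5 was here the highest control. The mean fell to 29.0% of control, from 5.63 ± 0.497 CPM in controls to 1.63 ± 0.352 (−1.78 on the log2 scale, SE 0.17, adjusted p = 1.91e-04), on 20 to 110 counts a library. It was called without any 1 library, with a highest adjusted p of 0.00109, and with the T cell score as covariate (adjusted p = 0.0029). Hsf2, its nearest coding gene, for a heat shock transcription factor, was lower too, at −0.27 (adjusted p = 0.0254).

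Promoter windows are shown for Gm36827 and for C430042M11Rik, the largest fall and the largest rise among the 14 called loci found in the promoter table. They hold 250 bases before and 50 bases, in capitals, from the annotated start, from RefSeq on GRCm38.p6, and both lie on the minus strand, at chr10:56982182-56982481 and chr17:83854369-83854668.
Gm36827: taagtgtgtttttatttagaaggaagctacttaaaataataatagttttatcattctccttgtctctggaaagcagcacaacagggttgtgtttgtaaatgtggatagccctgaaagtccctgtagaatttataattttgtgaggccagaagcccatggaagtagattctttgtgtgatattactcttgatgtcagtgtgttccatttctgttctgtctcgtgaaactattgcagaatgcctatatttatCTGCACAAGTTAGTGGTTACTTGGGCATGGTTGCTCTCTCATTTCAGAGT
C430042M11Rik: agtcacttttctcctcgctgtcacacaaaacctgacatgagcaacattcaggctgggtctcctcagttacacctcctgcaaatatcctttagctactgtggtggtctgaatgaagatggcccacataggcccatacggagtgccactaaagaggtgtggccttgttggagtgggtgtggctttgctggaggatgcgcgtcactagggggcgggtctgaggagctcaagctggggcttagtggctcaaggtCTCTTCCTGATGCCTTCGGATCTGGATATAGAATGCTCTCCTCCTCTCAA
The letters CTTTGAT, a core motif bound by Tcf/Lef factors, were searched on both strands in such windows. They occurred in 1160 of 27025 genes of the promoter table (4.29%), in 5 of the 180 members found there (2.78%), in 0 of 11 that fell and in 0 of 3 that rose. At a share of 4.29%, so few loci cannot show a lack of the motif. For some of them, such as 1700047G03Rik, Gdap10 and Lncpint, the GENCODE gene start lies outside the window. The called loci absent from the promoter table were not searched.

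Other large falls were at low levels. Gm44386, a locus of 429 exonic bases at chr6:86513891-86516273, was at 2.2, 1.08, 1.23, 1.08 and 1.29 CPM in controls and 0.46, 0.365, 0.33, 0.332 and 0.479 CPM in knockouts. All controls were above all knockouts, and control 1 stood above the other controls. The log2 fold change was −1.79 (SE 0.28, adjusted p = 0.0044), called in all 10 fits with 1 library left out. This locus met the count minimum only through the 5 controls, so it had to be lower in knockouts to some degree.

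9430037G07Rik, at chr9:88595325-88599516, was at 2.38, 2.29, 2.27, 2.3 and 1.88 CPM in controls and 0.919, 0.912, 0.396, 0.531 and 1.1 CPM in knockouts. C920006O11Rik, at chr9:78175914-78178879, was at 5.18, 3.37, 5.35, 4.8 and 3.81 CPM in controls and 1.84, 1.58, 2.37, 1.92 and 2.19 CPM in knockouts. In neither did the groups overlap. The log2 fold changes were −1.51 (adjusted p = 0.0052) and −1.18 (adjusted p = 0.0034), and both were called without any 1 library. C920006O11Rik lies 3807 bp downstream of Ick, a kinase of ciliary transport, on the same strand, and Ick was lower as well (−0.31, adjusted p = 0.0294). The remaining falls among the 10 largest, Gm43091 (−1.35), Gm48832 (−1.27), BC049987 (−1.19), Gm26601 (−1.18), B230217J21Rik (−1.15) and Gm48740 (−1.15), had adjusted p-values of 0.0252 to 0.0473 and were each called in 2 to 7 of the 10 fits. None of these 6 was called beside the T cell score, and limma-voom did not call Gm26601 (adjusted p = 0.117) or B230217J21Rik (adjusted p = 0.0654). Gm26601 lies within Dip2c on the same strand and was 1 of the 3 falls whose sign turned beside the intronic-type score, to 0.25 (adjusted p = 0.849), together with Gm26835 and Gm29007, chosen after their values were seen.

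Among the falls of lower fold but higher level, chosen after their values were seen, was Gdap10 at chr12:32821872-32826904, at 16.6, 21.9, 26.7, 19.8 and 9.96 CPM in controls and 6.89, 9.24, 8.31, 9.82 and 10.7 CPM in knockouts. Control 5 was again inside the knockout range. Its log2 fold change was −1.08 (adjusted p = 0.0126). The locus sits on the same strand inside the span of Nampt, the enzyme of NAD salvage, for which the value was −0.02 (adjusted p = 0.955). Reads of unspliced Nampt RNA and of Gdap10 cannot be told apart in such a place. Of 16 tested members that overlapped a coding span on the same strand, 4 fell and 0 rose, where 9.89% of all tested members and 7.05% of all genes fell, and no test of that count was made.

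Carmn, a smooth muscle and cardiac lincRNA chosen here after its values were seen, was at 15.7, 21.5, 14.6, 17.7 and 11.8 CPM in controls and 10, 10.8, 11.4, 11.1 and 9.1 CPM in knockouts. The lowest control was just above the highest knockout. The log2 fold change was −0.63 (SE 0.14, adjusted p = 0.0180), called without any 1 library, and −0.13 (adjusted p = 0.777) beside the intronic-type score. The endothelial markers, lower as given above, moved the same way. Markers of pericytes and smooth muscle had 0 of 7 called, with summed levels of 731 to 989 CPM in controls and 708 to 840 in knockouts, and the part of either cell type in the fall of Carmn was not tested. The cardiac lincRNA Bvht of the same list of conserved loci was not called (−0.34, adjusted p = 0.0737).

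In the 5 rises all knockouts were above all controls, as in 4.55% of all genes tested, called or not. The rises were called on these same libraries, so the call itself made such a separation likely. The most abundant, 1700047G03Rik, is a locus of unknown function at chr15:11964276-11970086 with 1493 exonic bases. It was at 81.2, 86.8, 105, 91.5 and 99.8 CPM in controls and 141, 155, 150, 121 and 164 CPM in knockouts. The lowest knockout was above the highest control, and the mean rose to 157% of control (log2 fold change 0.65, SE 0.091, adjusted p = 0.0022), called without any 1 library. Sub1, a coding gene for a transcription coactivator that lies 11253 bp away and is transcribed toward it, rose too (0.34, adjusted p = 0.0072).

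C430042M11Rik, at chr17:83851675-83854418, was at 1.31, 1.78, 1.35, 1.62 and 1.11 CPM in controls and 2.41, 3.16, 3.1, 2.65 and 3.49 CPM in knockouts. All knockouts were above all controls (log2 fold change 1.04, SE 0.18, adjusted p = 0.0077), and the call held without any 1 library. Its nearest coding gene is Haao, an enzyme of tryptophan breakdown, 3712 bp away on the same strand, with a value of 1.74 that did not pass (adjusted p = 0.0860). The low rises 4930511E03Rik (0.91, adjusted p = 0.0265) and Gm45253 (1.20, adjusted p = 0.0315) were each called in 4 of the 10 fits, and the first was not called with no filter on low counts (adjusted p = 0.0609).

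**Figure D5:**
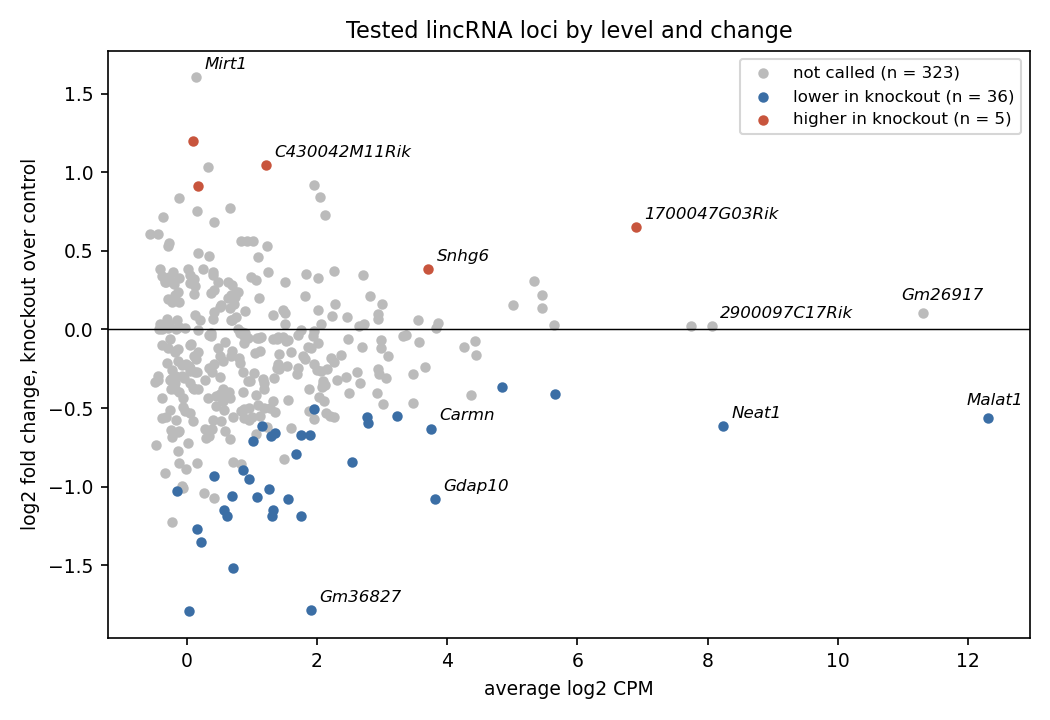
Log2 fold change against average log2 CPM for the 364 tested lincRNA members, with called members in color and the members discussed in the text named. The 36 falls lie at −0.37 to −1.79, with Malat1 at the far right, and the 5 rises lie at 0.38 to 1.20.

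Of the host genes of small nucleolar RNAs 1 was called. These transcripts carry the small RNAs in their introns, and their spliced remainder is often removed by nonsense-mediated decay. Snhg6, at chr1:9941959-9944118, was that host, among 6 members of a list of 22 (5.84% of all genes tested rose). It was at 10.6, 10.4, 12, 10.8 and 12.2 CPM in controls and 15.5, 15.1, 13.5, 14.6 and 14.6 CPM in knockouts. The groups did not overlap (log2 fold change 0.38, SE 0.081, adjusted p = 0.0151), and the call held without any 1 library. Snhg6 shares 11.1% of its exonic bases with Mcmdc2 on the other strand. Epb41l4aos also had all knockouts above all controls but was not called (0.33, adjusted p = 0.120), and Snhg10 (−0.38, adjusted p = 0.379), Snhg12 (0.07, adjusted p = 0.752), Snhg18 (−0.11, adjusted p = 0.492) and Snhg20 (−0.33, adjusted p = 0.258) were not called.

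MicroRNA genes lay within the span of 17 members on the same strand, 39 in all. Of these members 2 fell (7.05% of all genes did), 0 rose and 15 were not called. The 5p mature sequences of the microRNAs inside the 2 that fell are shown, without their 3p partners, from RefSeq (GRCm38.p6), 5′ to 3′, with the seed, bases 2 to 8, in capitals. The let-7 members share the seed GAGGUAG.
mmu-let-7a-5p: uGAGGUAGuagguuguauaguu
mmu-let-7f-5p: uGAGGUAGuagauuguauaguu
mmu-let-7d-5p: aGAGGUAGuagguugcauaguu
mmu-miR-30c-5p: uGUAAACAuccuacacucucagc
The let-7 locus is 6720427I07Rik at chr13:48532905-48546500, chosen like Gm27028 after its values were seen. It was at 32.7, 34.1, 27.2, 33 and 33.9 CPM in controls and 24.8, 21.6, 29.7, 26.3 and 22.5 CPM in knockouts, so that control 3 lay below knockout 3. Its log2 fold change was −0.37 (adjusted p = 0.0269), called in 5 of the 10 fits with 1 library left out. The levels are of the host transcript, and mature microRNAs are too short for these libraries.

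Gm27028, a locus of 399 bases around Mir30c-2 at chr1:23291537-23291935, was at 3.51, 4.52, 4.12, 5.07 and 1.93 CPM in controls and 0.977, 1.95, 1.91, 1.92 and 2.33 CPM in knockouts. Control 5 lay within the knockout range (log2 fold change −1.08, adjusted p = 0.0261, called in 6 of the 10 fits). Mir17hg, host of the miR-17 to miR-92 cluster, was not called (−0.36, adjusted p = 0.238).

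Mir142hg, host of a microRNA of blood cells, and Mirt1, listed with the hosts although no annotated microRNA lies in it, were high in 1 library. Mir142hg was at 2.92, 3.31, 2.52, 2.84 and 2.64 CPM in controls and 12.6, 3.34, 3.36, 3.58 and 2.46 CPM in knockouts. Knockout 1 stood apart, and the value of 0.84 (adjusted p = 0.162) was 0.17 (adjusted p = 0.489) without it. Mirt1 was at 0.536, 0.318, 0.246, 0.203 and 1.05 CPM in controls and 4.08, 0.365, 1.19, 0.929 and 0.685 CPM in knockouts (1.60, adjusted p = 0.108), and its value was 0.71 (adjusted p = 0.324) without knockout 1 and 2.14 (adjusted p = 0.0488) without control 5. The summed B cell markers were at 384 CPM in knockout 1, against 17.8 to 46.1 in the other knockouts and 10.5 to 26.9 in controls, and the summed T cell markers were at 151 CPM in knockout 1. Beside the T cell score Mir142hg stood at −0.31 (adjusted p = 0.561) and Mirt1 at −0.40 (adjusted p = 0.585), the opposite sign for both. Knockout 1 also had the highest T cell score, 3.823 against 1.01 to 2.055 in the other knockouts. The change of sign thus rests on 1 library and cannot show the part of T cells, and the part of B cells was not tested.

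Neither of the X inactivation members was called. Ftx, a positive regulator of Xist, stood at −0.16 (adjusted p = 0.631) and Jpx, which relieves repression of Xist, at −0.56 (adjusted p = 0.198) on the log2 scale. The 2 members listed for ribosomal or repeated sequence were not called. Gm26917 was at 1840.1, 2635.5, 2202, 2543 and 2923 CPM in controls and 3591, 2508.8, 2474.9, 2336.8 and 2147.7 CPM in knockouts (0.10, adjusted p = 0.666), with knockout 1 above all the others. Gm26870 ran from 1.27 to 32.5 CPM in controls and from 8.82 to 22.4 in knockouts (0.04, adjusted p = 0.971), and 54.6% of its exonic bases lie in other genes as well. Reads from repeated copies cannot be placed on such loci with certainty. Lncbate1, a lincRNA of brown fat and the only member of the 8 listed fat lincRNAs, was at 6.06 ± 1.02 CPM in controls and 6.18 ± 2.24 in knockouts (0.02, adjusted p = 0.955).

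Most members were at low levels. The median of their mean levels was 1.56 CPM, 346 were under 10 CPM and 6 at 100 or more, and Malat1 held 52.0% of the summed level. Per kilobase of exon the highest were Gm26917 at 757 CPM, Malat1 at 723, Gm10076 at 105, 1700047G03Rik at 80.1, AW112010 at 54.5 and 2900097C17Rik at 54.3, while Neat1 was at 14.5. Gm10076 (0.31, adjusted p = 0.0583) and AW112010 (0.13, adjusted p = 0.234), a locus induced in immune cells, were not called. The 374 members took 0.922% to 1.25% of the counts in controls and 0.723% to 0.981% in knockouts, and Malat1 alone 0.442% to 0.739% and 0.329% to 0.496%.

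The 26 members with 10 counts in exactly 5 libraries had mean levels of 0.494 to 0.960 CPM, and the 31 lincRNA genes with 10 counts in exactly 4 libraries had 0.435 to 0.661 CPM. Of the 26 edge members 17 were tested and 1 was lower (7.05% of all genes tested were). That was Gm44386, which met the minimum only through the controls. The 10 members that did not pass the filter of the test had mean levels of 0.494 to 0.767 CPM. Gm45159 among these reached 10 counts only in the 5 controls, at a mean of 0.883 CPM in controls and 0.258 in knockouts, and no member reached the minimum through the knockouts alone.

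By position, 89 members overlapped the span of a coding gene and 111 more lay within 5 kb of one. Of 86 tested members that overlapped a coding span 10 fell and 1 rose, of 108 within 5 kb 10 fell and 1 rose, of 105 between 5 and 50 kb 11 fell and 1 rose, and of 65 beyond 50 kb 5 fell and 2 rose. These are 12.8%, 10.2%, 11.4% and 10.8% called, near the 12.9% of all genes. The nearest coding gene was itself lower for 7 of the 36 falls, higher for 1, not called for 23 and not tested for 5, where 5.75% of all tested coding genes were lower. For the 323 members not called it was lower for 20 and higher for 9. The 7 pairs in which both were lower, for which no test of the overlap was made, were C920006O11Rik with Ick, Gm36827 with Hsf2 and B230217J21Rik with Nova1, a neuronal splicing factor 1525 bp away (−0.54, adjusted p = 0.0170), besides 4 others. Gm26671, also chosen after its values were seen, fell (−0.89, adjusted p = 0.0156) while its neighbour Commd2 rose (0.26, adjusted p = 0.0419).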

How the data were processed

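Total RNA of 10 libraries was depleted of ribosomal RNA and prepared with a strand-marking kit, per the labels' protocols. The authors deposited gene counts, and the submitters' processing notes name the build GRCm38 with featureCounts 1.5.1, STAR 2.5.2b and DESeq2 1.16.0. The sources used here give neither the annotation release nor the strand setting of the counting, so antisense reads cannot be set apart. Gene types, spans and lengths are from GENCODE M21, matched on the gene identifiers (52489 of 52636 genes). Counts were tested with edgeR 4.0.16 (quasi-likelihood, TMM scaling, filter by expression in R 4.3.3), knockout against control over 10 libraries without covariates, with Benjamini-Hochberg adjustment over all 15927 genes tested and a threshold of 0.05. CPM values are TMM-scaled. The SE is the log2 fold change divided by the root of the F statistic.

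Members and lists were chosen with earlier results of these data known. Named were Malat1 and Neat1, members on the nuclear-retained, X inactivation, small nucleolar RNA host, microRNA host, ribosomal locus and fat lists, the 10 largest falls and rises at an average log2 CPM of at least 0, the 6 highest per kilobase and the nearest coding gene of a named call. Lists of p53 and stress lincRNAs (2 of 4 members fell, 0 rose) and conserved lincRNAs (3 of 9 fell, 0 rose; 7.05% of all genes fell) were also counted, as were markers of Schwann cells (3 of 6 lower), macrophages, progenitors and muscle (0 called), while none of the 8 mammary epithelium markers passed the filter of the test. The 20 pairs of libraries within groups differed beyond counting noise (chi-square per degree of freedom 7.28 to 29.7), so none was counted as a duplicate. Alternatives were RLE size factors, library totals, no filter, 30 or more counts in at least 5 libraries, DESeq2 1.42.0, limma-voom (limma 3.58.1), the 2 score covariates (prior count 2) and leaving out each library. The procedure was tested on simulated data.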

Additional observations from a re-analysis of the deposited data

Results flagged for a closer look

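In 9 of 74 groups of 5 libraries tested, 1 library stood apart from the other 4 by Dixon's criterion. Chance alone meets it in about 1 group of 20 where values are independent and normal. The groups here share the same 10 libraries, and some loci were named for their values, so the 2 shares cannot be compared. Knockout 1 was high for 4 loci: Gm26917 at 3590 CPM (others 2150 to 2510), Mir142hg at 12.6 CPM (2.46 to 3.58), Mirt1 at 4.08 CPM (0.365 to 1.19) and Snhg12 at 10 CPM (6.87 to 7.63). Control 5 was high for 2900097C17Rik at 297 CPM (others at most 262) and low for 9430037G07Rik at 1.88 CPM (2.27 to 2.38). The other 3 were B230217J21Rik in knockout 3 at 2.37 CPM (1.13 to 1.38), Gm44386 in control 1 at 2.2 CPM (1.08 to 1.29) and Lncbate1 in knockout 5 at 10.1 CPM (4.8 to 5.58).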

How the results depend on the processing

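With RLE size factors the same 36 falls and 5 rises were called, and library totals gave 32 and 5. Falls numbered 31 with no filter, 26 with 30 or more counts in at least 5 libraries, 41 with DESeq2 and 27 with limma-voom, with rises of 9, 3, 8 and 5. The intronic-type score gave 1 fall and 0 rises, and turned Gm26601 to 0.25, and the T cell score gave 6 falls and 4 rises. Leaving out 1 library gave 9 to 54 falls and 3 to 9 rises. Library sizes without Malat1, Gm26917 and Gm26870, chosen after seeing the data, gave 35 and 5. No paired analysis was possible because replicate numbers were given in record order and the mouse numbers of the titles are not shared between groups. At the members' median level of 1.56 CPM a library holds few counts, which limits the precision of most folds.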
